A study of Mus musculus with 20 samples.

Results

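The 34 genes described here encode nucleolar proteins that make ribosomes: subunits of RNA polymerase I, the proteins of the small nucleolar ribonucleoproteins (snoRNPs) that modify ribosomal RNA, processing factors of both ribosomal subunits, and nucleolar chaperones. They were chosen by name as a growth programme that lies downstream of Myc after loss of Apc. The choice did not use their values as a criterion, but earlier results of these data were known when it was made. All 34 were found among the 24795 genes of the table, and all 34 passed the filter on low values, which 12433 genes passed. RNA was sequenced from 20 mouse libraries. Of the Apc Min libraries, 7 had a control treatment (called control below) and 6 had DM-aKG, and a further 7 libraries were from wild-type (WT) mice without treatment. The Apc Min allele truncates Apc, which normally holds together the machinery that destroys beta-catenin, and heterozygous mice form intestinal adenomas. DM-aKG stands for dimethyl alpha-ketoglutarate, an ester of the TCA cycle intermediate alpha-ketoglutarate that enters cells. For every library the labels list an organoid medium and a low-glutamine medium and name intestinal organoids, while the sample titles name tissue. The sources used here give no age, strain background or dose. The labels also do not say whether libraries of a group came from separate animals, so the p-values rest on library-to-library spread, which may be technical.

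A ribosome begins in the nucleolus, where RNA polymerase I transcribes a long precursor that holds the 18S, 5.8S and 28S ribosomal RNAs. Box C/D snoRNPs methylate the precursor, box H/ACA snoRNPs convert uridines to pseudouridines, and a large assembly around the U3 snoRNA, the small-subunit processome, cuts out the 18S RNA, while other factors build the 60S subunit. The transcription factor Myc binds with its partner Max to the E-box CACGTG and is known to drive many genes of this pathway, and in the intestine Myc is a target of the Wnt pathway that Apc restrains.

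Values are RPKM, reads per kilobase of gene scaled to the mapped reads of the library. Differences are on the log2(RPKM + 1) scale, which understates changes of weakly expressed genes, and a gene was called at an adjusted p under 0.05 (limma, Benjamini-Hochberg over all 12433 genes). Depth, estimated from the step between low values, was 21.2 to 29.3 M reads per library. Over all libraries, members lay between 1.05 and 200.5 RPKM, and the weakest value corresponded to about 24.1 reads per kilobase. Markers of cells other than epithelium were above 0 in every library, and the summed RPKM of 12 smooth muscle markers was 1121 to 1917 in WT, 436.7 to 1474 in control Apc Min and 994.1 to 1731 in DM-aKG libraries. In such mixed samples, fewer cells of a type and less RNA per cell cannot be told apart. Several libraries lay at an end of their group for many members. WT replicate 7 was the highest of its group for 31 of 34 members and control replicate 6 for 25. WT replicate 2 and DM-aKG replicate 6 were each the lowest of their group for 20. A further pair is called below the pair of libraries that stood apart. The DM-aKG library replicate 2 was the highest of its group for 32 of 34 members, and the control library replicate 1 was the lowest of its group for 24 of 34. The counts by role are given with and without this pair, an alternative chosen after seeing the data. Leaving out the highest DM-aKG and the lowest control library makes a negative treatment difference larger by construction. It also raises control over WT and lowers DM-aKG over WT. The counts without the pair are therefore no independent check on these differences. Leaving out control replicate 6 alone gave 20 members lower with DM-aKG and 25 higher in control over WT. Over all genes it gave 3105 lower and 5171 higher, in the same order.

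In DM-aKG against control Apc Min libraries, 24 of 34 members (70.6%) were lower, none was higher, and 10 were not called. Of all genes tested, 27.6% were lower and 5.91% higher (33.5% in either direction). The median difference of the members was -0.44 on the log2(RPKM + 1) scale, against -0.14 over all genes, and each of the 34 estimates was negative. Every DM-aKG library lay below every control library for 5 members (Gar1, Nhp2, Nop10, Npm1 and Nop56), an arrangement found in 8.19% of all genes, with 0.732% in the opposite one. Without the pair of libraries that stood apart, 32 members and 3924 of all genes were called lower, with medians of -0.59 and -0.16. In control Apc Min against untreated WT libraries, 29 of 34 members (85.3%) were higher and none was lower, against 43.2% higher and 15.7% lower over all genes (58.8% in either direction). The median difference was 0.55 for the members and 0.20 over all genes. With that pair left out, 33 members and 5486 of all genes were higher, with medians of 0.62 and 0.21. Control Apc Min and WT libraries differ in genotype and also in that the former had a control treatment and the latter none. Every control library lay above every WT library for 9 members (Npm1, Ncl, Nop16, Pes1, Wdr12, Gar1, Nhp2, Ddx10 and Nop14), as it did for 20.4% of all genes, and 5.73% lay wholly below. The same control libraries serve in both comparisons, so the members' values in the 2 comparisons are not independent of each other.

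Because the bulk of all genes was shifted in both comparisons, the members were also measured relative to that shift. Median-of-ratios scaling brought the median of all genes from -0.14 to 0 for the treatment and from 0.20 to -0.01 for control against WT. It called 13 members lower and none higher with DM-aKG (median -0.29), against 1815 genes lower and 1367 higher where the deposited scale gave 3432 lower and 735 higher. For control Apc Min against WT it called 20 members higher and 1, Bop1, lower (median 0.35), with 3258 genes higher and 3412 lower in place of 5368 and 1948. All 34 treatment estimates stayed negative under this scaling and under quantile normalization, which called 13 lower with DM-aKG and 19 higher in control over WT. Over all genes, quantile normalization called 1837 lower with DM-aKG and 3275 higher in control over WT.

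**Figure D1:**
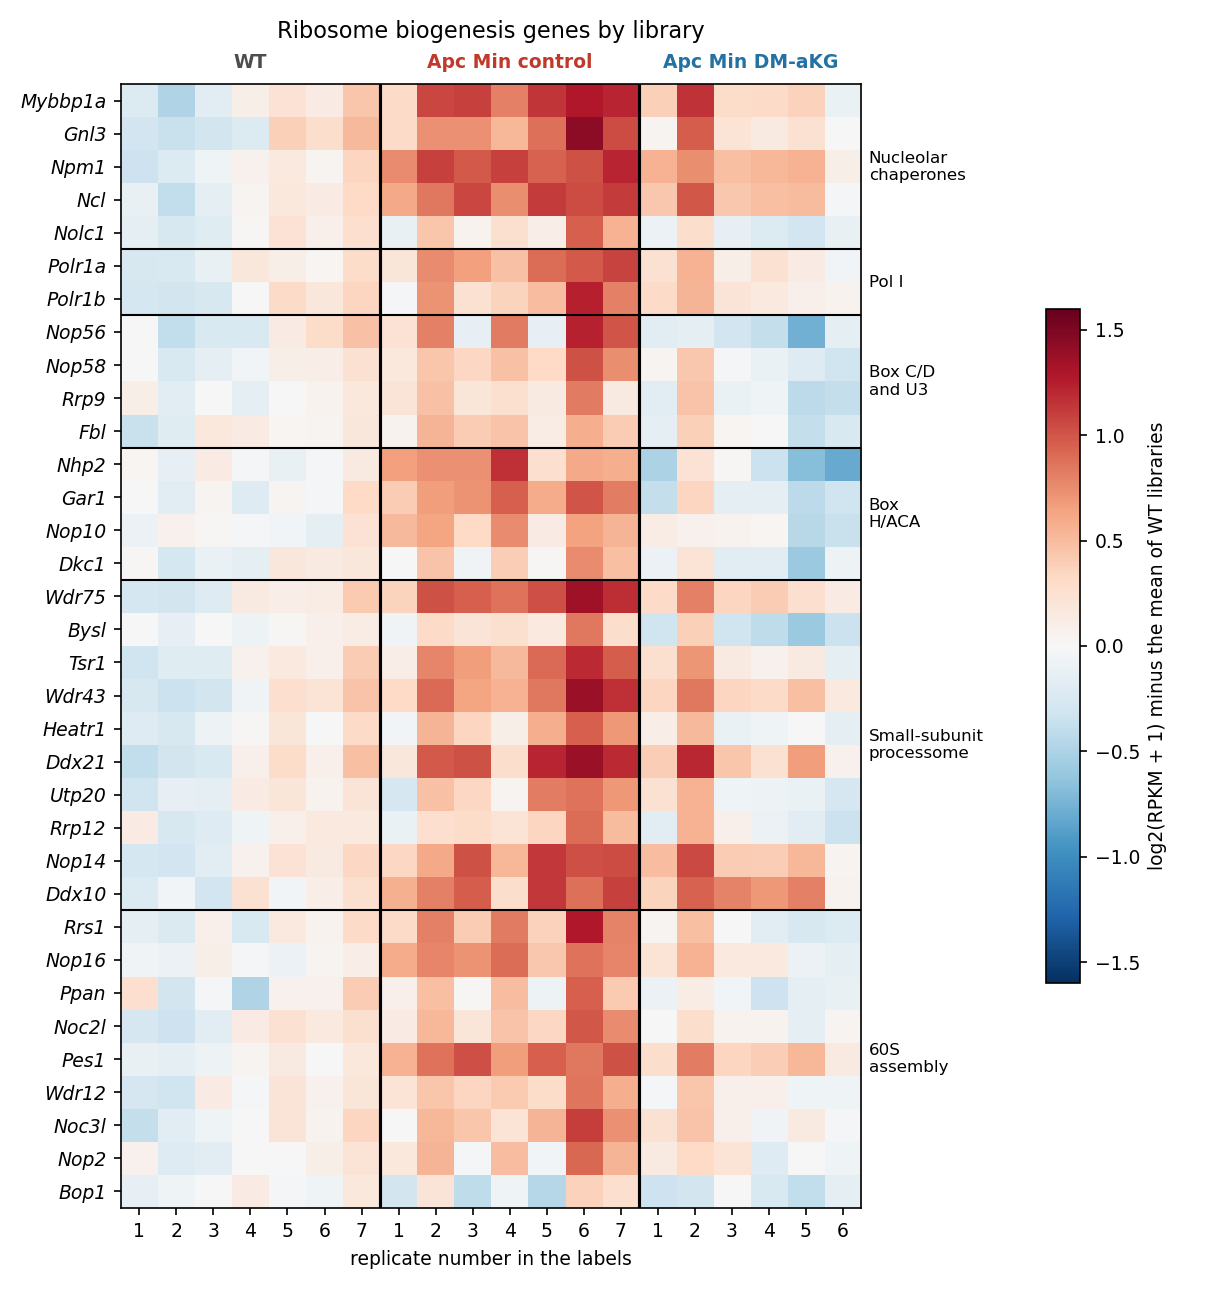
Each column is 1 library and each row 1 of the 34 members, grouped by role, and the colour gives log2(RPKM + 1) minus the mean of the 7 WT libraries. Most rows are raised across the control Apc Min libraries and return toward the WT level in the DM-aKG libraries, where replicate 2 is the highest for 32 of 34 members, and Bop1 is the row without a rise.

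The 4 core proteins of the box H/ACA snoRNP, which makes pseudouridine in ribosomal RNA and also forms part of telomerase, were all lower with DM-aKG, and their median difference of -0.76 on the log2(RPKM + 1) scale was the most negative of the 6 roles. Median-of-ratios scaling and quantile normalization each called 3 of the 4 lower (medians -0.59 and -0.60), and without the pair of libraries that stood apart all 4 were (median -0.85). Gar1, a core subunit, had RPKM values with lowest, median and highest library at 6.11, 7.20 and 9.19 in WT, 9.85, 12.4 and 15.4 in control Apc Min, and 5.11, 5.99 and 9.36 in DM-aKG libraries. All control libraries lay above all others, and the highest DM-aKG value came from replicate 2. Gar1 averaged 12.8 ± 1.97 RPKM (SD, n = 7) in control and 6.35 ± 1.58 RPKM (SD, n = 6) in DM-aKG libraries, a difference of -0.92 (SE 0.12, limma adjusted p = 1.03e-05). Nhp2, the subunit that binds the guide RNA, ran from 13.0 through a median of 14.1 to 15.8 RPKM in WT, from 17.5 through 23.2 to 33.2 RPKM in control, and from 7.70 through 10.4 to 16.9 RPKM in DM-aKG libraries. The control libraries again overlapped neither other group, while DM-aKG and WT overlapped. Its difference with DM-aKG was -1.03 (SE 0.15, limma adjusted p = 2.52e-05), the largest among the 34 members. The smallest core protein, Nop10, averaged 29.8 ± 4.32 RPKM in control (SD, n = 7) and 19.5 ± 3.29 RPKM in DM-aKG libraries (SD, n = 6), a difference of -0.59 (limma adjusted p = 0.00039). Dkc1, the pseudouridine synthase itself, ran from 4.77 through 6.06 to 6.94 RPKM in WT, from 5.73 through 8.19 to 10.8 RPKM in control, and from 3.63 through 5.38 to 7.13 RPKM in DM-aKG libraries. The groups overlapped for Dkc1. It fell by 0.44 with DM-aKG (limma adjusted p = 0.0179, or 0.0554 without DM-aKG replicate 5) but was not called between control and WT (0.29, limma adjusted p = 0.0646). Gar1, Nhp2 and Nop10 were higher in control than in WT, by 0.74, 0.68 and 0.51. None of the 4 was called between DM-aKG and WT, with estimates from -0.35 to -0.09. Nhp2 shares exon sequence with Rmnd5b on the opposite strand, which also fell with DM-aKG (-0.42, limma adjusted p = 0.00167). Dkc1 overlaps Mpp1 in the same way, which averaged 138.6 RPKM over all libraries and rose with DM-aKG (0.54, limma adjusted p = 0.0321). The sources do not give the strand setting of the counting, so reads of such partners cannot be told apart.

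The 4 proteins of the box C/D snoRNP and the U3 particle were all lower with DM-aKG (median -0.49) and all higher in control than in WT (median 0.43) on the deposited scale. After median-of-ratios scaling 2 of the 4 were lower with DM-aKG (median -0.34) and none was higher in control than in WT (median 0.20), and after quantile normalization 2 were lower and 1 was higher. All 4 were called in both comparisons without the pair of libraries that stood apart. Fbl, fibrillarin, the methyltransferase of the particle, ran from 17.96 through a median of 24.0 to 26.5 RPKM in WT, from 24.3 through 31.2 to 35.3 RPKM in control, and from 17.7 through 22.1 to 30.6 RPKM in DM-aKG libraries. The groups overlapped. Fbl fell by 0.43 with DM-aKG (SE 0.12, limma adjusted p = 0.0111) and rose by 0.37 in control over WT (limma adjusted p = 0.0115). Nop56, a core scaffold, averaged 23.7 ± 8.93 RPKM in control (SD, n = 7) and 11.8 ± 1.95 RPKM in DM-aKG libraries (SD, n = 6), a difference of -0.87 (limma adjusted p = 0.0032). Its groups were narrowly apart, with the lowest control library at 13.44 RPKM and the highest DM-aKG library at 13.38 RPKM. It overlaps the exons of Idh3b, which averaged 52.9 RPKM. Its partner Nop58 fell by 0.53, and Rrp9, the U3-specific protein, by 0.44. Rrp9 shares exon sequence with Parp3 on the opposite strand, at 6.84 RPKM on average. Parp3 was not called with DM-aKG (-0.28, limma adjusted p = 0.0894). No protein of this class was called between DM-aKG and WT, with estimates from -0.32 to -0.03.

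The 5 nucleolar chaperones and rDNA-associated proteins were all lower with DM-aKG (median -0.52), and 4 of the 5 were higher in control than in WT (median 0.94), on the deposited scale. With DM-aKG, Npm1 was the 1 of the 5 still called lower after median-of-ratios scaling (median -0.35) and after quantile normalization (median -0.39). For control over WT the count of 4 was the same under both scalings. All 5 were lower with DM-aKG and all 5 higher in control without the pair of libraries that stood apart. Npm1, nucleophosmin, a chaperone of histones and ribosomal proteins, was the most abundant member. Its lowest, median and highest RPKM values were 67.9, 88.4 and 109.2 in WT, 145.3, 174.3 and 200.5 in control, and 91.9, 125.3 and 143.9 in DM-aKG libraries. Npm1 therefore separated the control libraries from both other groups, and DM-aKG stood between control and WT. Npm1 was 2.02 times as high in control as in WT by the ratio of means, a difference of 1.01 (SE 0.11, limma adjusted p = 2.54e-07), and fell by 0.52 with DM-aKG (SE 0.12, limma adjusted p = 0.00163). It has near-identical processed copies in the genome, with which the counting could have shared its reads. Ncl, nucleolin, an RNA-binding protein of rDNA transcription and early processing, ran from 21.4 through 29.2 to 35.5 RPKM in WT, from 43.6 through 59.7 to 62.9 RPKM in control, and from 27.7 through 39.3 to 57.7 RPKM in DM-aKG libraries. Control and WT did not overlap for Ncl, and the DM-aKG libraries overlapped both. Ncl rose by 0.94 in control over WT (limma adjusted p = 7.62e-06) and fell by 0.47 with DM-aKG (limma adjusted p = 0.0137). Both genes stayed above WT with DM-aKG, by 0.49 for Npm1 (limma adjusted p = 0.00261) and 0.47 for Ncl (limma adjusted p = 0.0123). The treatment estimates of the others were -0.59 for Mybbp1a, a Myb-binding nucleolar protein, -0.54 for Gnl3, the nucleolar GTPase nucleostemin, whose call was kept in 12 of the 20 fits that left out 1 library each, and -0.42 for Nolc1, a snoRNP chaperone, kept in 13 of 20. Mybbp1a was not called without DM-aKG replicate 6 (-0.49, limma adjusted p = 0.054). Mybbp1a shares exon sequence with Spns2 on the opposite strand, which averaged 10.7 RPKM and moved the same way, by -1.0 with DM-aKG (limma adjusted p = 0.00514) and 1.46 in control over WT (limma adjusted p = 4.77e-05). Gnl3 overlaps Pbrm1, which fell by 0.30 with DM-aKG (limma adjusted p = 0.0206) and rose by 0.34 in control over WT (limma adjusted p = 0.00379). Nolc1 was the one not called between control and WT (0.32, limma adjusted p = 0.0535).

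Of the pair of RNA polymerase I subunits, both were higher in control than in WT and 1 was lower with DM-aKG. Quantile normalization called 1 of them higher in control, and both were lower with DM-aKG without the pair of libraries that stood apart. Polr1a, the largest subunit, ran from 1.53 through a median of 2.11 to 2.72 RPKM in WT, from 2.48 through 4.11 to 5.42 RPKM in control, and from 1.93 through 2.45 to 3.46 RPKM in DM-aKG libraries. Control overlapped both other groups, and most DM-aKG values lay within the WT range. Polr1a rose by 0.72 in control over WT (limma adjusted p = 0.000107) and fell by 0.52 with DM-aKG (SE 0.14, limma adjusted p = 0.00626). Polr1b, the second-largest subunit, gave a treatment estimate of -0.32 that was not called (95% interval -0.67 to 0.02). The product of the polymerase is represented in the table by Rn45s, the ribosomal precursor transcript, which averaged 4203 ± 1476 RPKM in WT (SD, n = 7), 3677 ± 1319 RPKM in control (SD, n = 7) and 4063 ± 1744 RPKM in DM-aKG libraries (SD, n = 6). No difference between these means passed 0.05 (2-sided exact permutation test, p = 0.661 for the treatment, p = 0.494 for control against WT, p = 0.879 for DM-aKG against WT). The spread includes a difference between replicate numbers. In replicates 1 to 4 the means were 5175 RPKM in DM-aKG and 4376 RPKM in control libraries (SD of 275.4 and 756.2, n = 4 each, exact permutation p = 0.114, smallest possible p = 0.0286). In replicates 5 to 7 they were 1837 and 2746 RPKM (exact permutation p = 0.4, smallest possible p = 0.1), so the group with the higher mean was not the same in both sets, and neither difference passed 0.05. For control against WT the exact permutation p was 0.343 in the first set and 1 in the second, and for DM-aKG against WT 0.886 and 0.1. The labels do not say how ribosomal RNA was handled before sequencing, which bears on the Rn45s values.

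Of the 10 small-subunit factors, 9 were higher in control than in WT (median 0.77) and 4 were lower with DM-aKG (median -0.39). Without the pair of libraries that stood apart, 9 of the 10 were lower with DM-aKG (median -0.59) and all 10 higher in control (median 0.85). Median-of-ratios scaling and quantile normalization each called 3 lower with DM-aKG and 6 higher in control. The 4 that fell in all libraries together were Wdr75 (-0.59), a U3 processome protein, Bysl (-0.55), which acts in late maturation of the small subunit, Tsr1 (-0.54), a maturation GTPase-like factor, and Heatr1 (-0.40), a processome protein that also supports rDNA transcription and whose call was kept in 10 of the 20 fits that left out 1 library each. The other 6 had estimates from -0.42 for Wdr43 to -0.21 for Ddx10. Ddx10, an RNA helicase of the processome, ran from 3.30 through a median of 4.18 to 5.36 RPKM in WT, from 5.44 through 8.84 to 10.6 RPKM in control, and from 4.56 through 7.91 to 9.24 RPKM in DM-aKG libraries. Control lay wholly above WT, while the DM-aKG libraries covered most of the control range. Ddx10 rose by 0.82 in control over WT (limma adjusted p = 9.6e-05), was not called with DM-aKG (95% interval -0.53 to 0.11, limma adjusted p = 0.306), and remained above WT in the treated libraries by 0.61 (limma adjusted p = 0.00433). Nop14 gave the same order, with 0.81 in control over WT, -0.32 with DM-aKG (not called) and 0.49 in DM-aKG over WT, the last not called without DM-aKG replicate 2 (0.38, limma adjusted p = 0.0603). Bysl was not called between control and WT (0.28, limma adjusted p = 0.0688). On the opposite strand, Heatr1 shares exon sequence with Lgals8 (22.1 RPKM on average), Bysl with Ccnd3 (10.9 RPKM) and Tsr1 with Srr (8.02 RPKM). None of these partners was called with DM-aKG, and Srr was lower in control over WT (-0.65, limma adjusted p = 0.0141).

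Among the 9 factors of 60S assembly, 7 were higher in control than in WT (median 0.49) and 6 were lower with DM-aKG (median -0.43). Leaving out the pair of libraries that stood apart gave 8 higher in control and 8 lower with DM-aKG. Median-of-ratios scaling called 5 higher and 1, Bop1, lower in control, and 3 lower with DM-aKG, and quantile normalization called 4 higher and 3 lower. Nop16 ran from 4.52 through a median of 4.80 to 5.32 RPKM in WT, from 6.89 through 9.08 to 9.89 RPKM in control, and from 4.27 through 5.53 to 7.60 RPKM in DM-aKG libraries. The WT libraries were tightly grouped and lay wholly below control, and DM-aKG overlapped both. Nop16 rose by 0.72 in control over WT (limma adjusted p = 3.98e-06) and fell by 0.59 with DM-aKG (SE 0.10, limma adjusted p = 0.000187). Rrs1, which joins the 5S RNP to the pre-60S particle, fell by 0.71 (limma adjusted p = 0.00132). Noc2l, which forms a complex with Noc3l, fell by 0.44, and Ppan by 0.44, the latter kept in 12 of the 20 fits that left out 1 library each and not called in control over WT (0.34). Noc3l (-0.37) and the RNA methyltransferase Nop2 (-0.30) were not called with DM-aKG and were higher in control than in WT, by 0.51 and 0.37.

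Pes1, Bop1 and Wdr12 form the PeBoW complex, which is needed to process the precursor of 28S ribosomal RNA. Pes1 ran from 7.37 through a median of 8.32 to 9.49 RPKM in WT, from 12.7 through 16.0 to 17.98 RPKM in control, and from 9.30 through 11.1 to 15.4 RPKM in DM-aKG libraries. Control lay wholly above WT, and the treated libraries overlapped both at the edges. Pes1 rose by 0.85 in control over WT (SE 0.10, limma adjusted p = 6.14e-07), fell by 0.43 with DM-aKG (limma adjusted p = 0.00321) and stayed 0.42 above WT (limma adjusted p = 0.00377). Bop1 ran from 8.07 through a median of 8.69 to 10.2 RPKM in WT, from 6.25 through 8.46 to 11.8 RPKM in control, and from 6.55 through 7.20 to 8.94 RPKM in DM-aKG libraries. The 3 ranges overlapped throughout, and the control libraries were the most spread. Bop1 was the 1 member with a negative estimate in control over WT (-0.05, 95% interval -0.30 to 0.20), and its treatment estimate was -0.18 (95% interval -0.44 to 0.08, limma adjusted p = 0.271). Wdr12 rose by 0.45 in control over WT (limma adjusted p = 0.00192) and fell by 0.38 with DM-aKG (limma adjusted p = 0.0173). Bop1 was thus called in neither comparison and its partners in both, and whether Bop1 differed from them was not tested. Bop1 shares exon sequence with Mroh1 on the opposite strand, at 4.33 RPKM on average, whose own estimates were 0.00 for the treatment and -0.06 for control over WT.

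**Figure D2:**
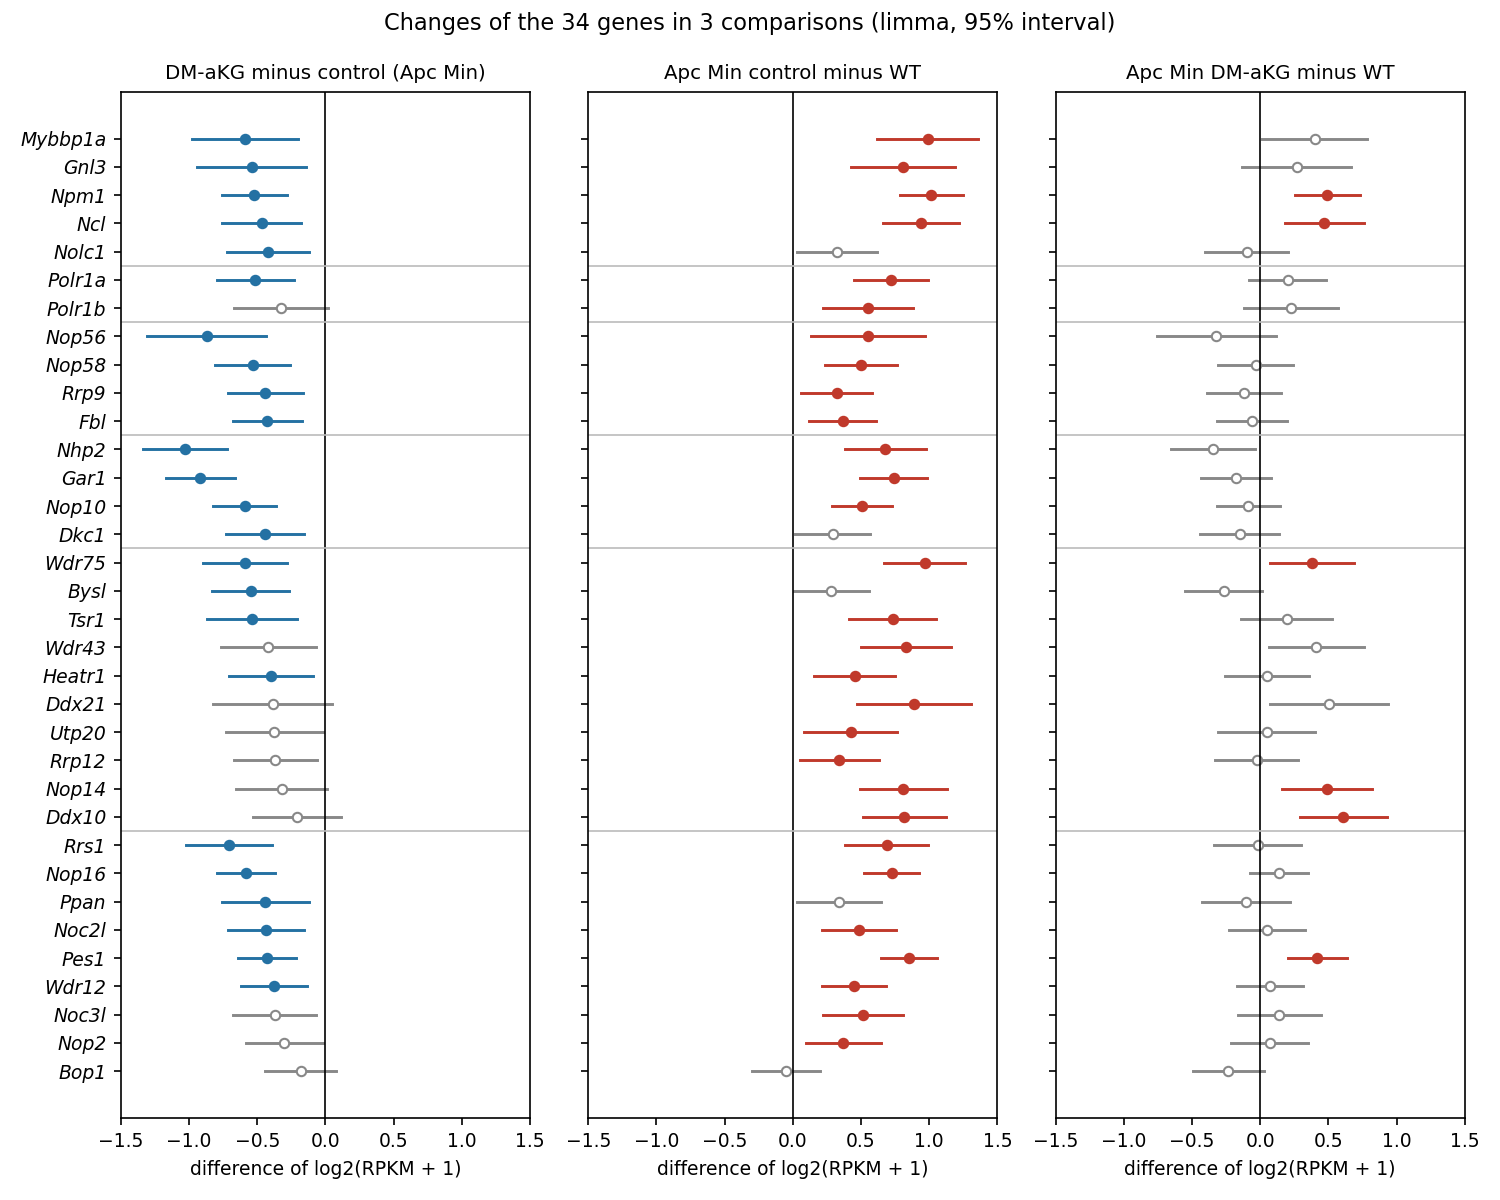
Each row is 1 member and each panel 1 comparison, with the log2 difference (log2 of RPKM + 1) as a point and its 95% interval as a bar, blue where called lower, red where called higher and open grey where not called. In the treatment panel all 34 points lie left of 0 and 24 are called, in the control against WT panel 29 are called to the right, and in the DM-aKG against WT panel the points scatter around 0 with 6 called.

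The window around the Pes1 start site is shown because Pes1 was, of the members given in full, the 1 whose window held the E-box to which Myc and Max bind. It spans chr11:3963725-3964024 on the forward strand (RefSeq, GRCm38.p6, the mm10 build), 250 bases before to 50 after the start, with the E-box in capitals.
Pes1: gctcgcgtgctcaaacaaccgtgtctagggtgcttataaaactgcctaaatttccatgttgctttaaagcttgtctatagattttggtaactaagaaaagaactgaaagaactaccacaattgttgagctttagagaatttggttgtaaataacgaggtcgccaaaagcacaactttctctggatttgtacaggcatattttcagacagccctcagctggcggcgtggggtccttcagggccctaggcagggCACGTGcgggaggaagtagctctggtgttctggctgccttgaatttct
The E-box begins at base 3, counting the start base of Pes1 as 1. The motif searched was CACGTG, which reads the same on both strands. It was present in the windows of 6 of the 29 members that have one (20.7%), against 7.15% of all 32851 windows of this length and 11.6% of the 9693 tested genes with a window. No window was matched for Fbl, Bop1, Npm1, Rrs1 and Rrp12. The other 5 matches are shown with up to 20 bases on each side, so that the setting of the same 6 letters can be compared; they were chosen after their values were seen.
Mybbp1a: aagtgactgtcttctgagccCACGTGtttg
Tsr1: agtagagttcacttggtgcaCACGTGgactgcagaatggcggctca
Nop2: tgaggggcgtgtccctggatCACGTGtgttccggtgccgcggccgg
Utp20: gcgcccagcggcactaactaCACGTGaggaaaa
Wdr43: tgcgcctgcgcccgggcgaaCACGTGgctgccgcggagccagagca
These stretches lie at chr11:72441347-72441376 for Mybbp1a, chr11:74898084-74898129 for Tsr1, chr6:125131803-125131848 for Nop2, chr10:88826765-88826797 on the reverse strand for Utp20, and chr17:71616212-71616257 for Wdr43. On the same count the motif began at base 41 for Mybbp1a, 25 for Tsr1, 18 for Wdr43 and 38 for Utp20, and 60 bases before the start for Nop2. Of the 6 genes, Pes1, Mybbp1a and Tsr1 were lower with DM-aKG, and Nop2, Utp20 and Wdr43 were not called. All 6 were higher in control than in WT, as were 29 of the 34 members. A match describes these letters and does not show that a factor was bound.

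Myc itself followed the same order of groups as most members. Its lowest, median and highest RPKM values were 2.88, 5.77 and 9.49 in WT, 7.27, 11.9 and 18.1 in control, and 5.40, 7.27 and 8.72 in DM-aKG libraries. The groups overlapped, and the lowest control value came from replicate 1 and the highest DM-aKG value from replicate 2, the libraries that also stood apart in the members. Myc rose by 1.19 in control over WT (SE 0.20, limma adjusted p = 5.09e-05) and fell by 0.77 with DM-aKG (SE 0.21, limma adjusted p = 0.00743). In DM-aKG over WT it was not called (0.41, 95% interval -0.02 to 0.85). Its paralogue Mycl averaged 2.37 ± 0.57 RPKM in WT, 10.7 ± 3.23 RPKM in control (SD, n = 7 each) and 4.33 ± 1.12 RPKM in DM-aKG libraries (SD, n = 6). Mycl fell by 1.11 with DM-aKG (limma adjusted p = 8.02e-05), rose by 1.77 in control over WT (limma adjusted p = 5.48e-08) and stayed 0.65 above WT. Mycn was weak, at 0.43, 1.37 and 0.64 RPKM in the 3 groups, and fell by 0.53 with DM-aKG (limma adjusted p = 0.00698). No WT library of Mycn reached 1 RPKM, and it passed the filter through the control libraries, where it was highest. Its calls against control are therefore no independent result. Mxd3, at 0.82, 0.94 and 0.39 RPKM, did not pass the filter. Myc, Mycl and Mycn were the genes called with DM-aKG among the 10 tested Myc network genes.

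Between control and WT all 10 network genes were called, 6 higher and 4 lower. Besides the 3 Myc genes, Mnt (0.73), Mxd4 (0.65) and Mga (0.46), Max partners that can repress Myc targets, were higher in control. Mlx (-0.77), Mxi1 (-0.79), Mxd1 (-0.85) and Max (-0.30) were lower. Max was called on the deposited scale and not after quantile normalization, and Mga was called after neither scaling. With DM-aKG the 7 others had estimates from -0.27 for Mxd1 to 0.20 for Max, none called on the deposited scale. Mlx was called higher after median-of-ratios scaling (0.36, limma adjusted p = 0.018) and after quantile normalization (0.37, limma adjusted p = 0.00456). Mga, Mnt, Mxd4 and Mxi1 changed sign under some scaling with no call. In DM-aKG over WT, Mnt (0.56), Mxd4 (0.59) and Mycl (0.65) were higher and Mlx (-0.57), Mxi1 (-0.88) and Mxd1 (-1.12) lower.

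**Figure D3:**
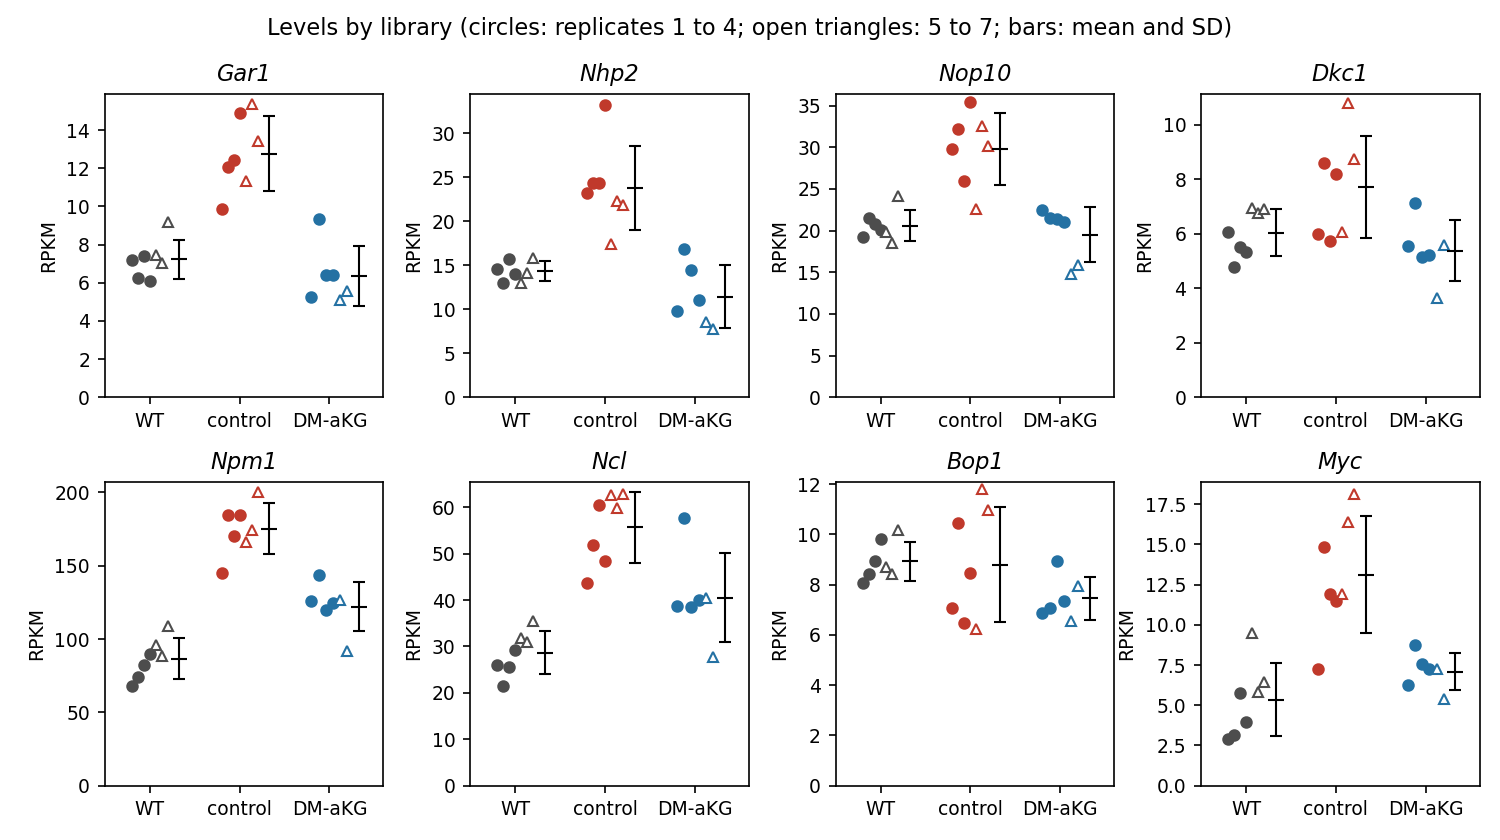
RPKM of the 4 box H/ACA genes, Npm1, Ncl, Bop1 and Myc in every library, with circles for replicates 1 to 4, open triangles for higher numbers and bars for the group mean ± SD (n = 7, 7 and 6). Control libraries lie above both other groups for Gar1, Nhp2 and Npm1, and the 3 groups overlap for Bop1.

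Against untreated WT, the DM-aKG libraries had 6 members higher (17.6%; Npm1, Pes1, Ddx10, Ncl, Nop14 and Wdr75) and none lower, where 21.9% of all genes were higher and 17.3% lower (39.2% in either direction). The median of the 34 differences was 0.06, against 0.05 over all genes, and no member separated the 2 groups completely, where 9.36% of all genes lay wholly above and 7.79% wholly below WT. The 6 higher members comprised 2 chaperones, 3 small-subunit factors and 1 factor of 60S assembly. Wdr75 gave the smallest of these differences (0.38, limma adjusted p = 0.0481), and its call was kept in 4 of the 20 fits that left out 1 library each. Genotype and compound both differ in this comparison. Without the pair of libraries that stood apart, 5 members were higher and 3 lower, against 2344 higher and 1944 lower over all genes. Of the 28 members not called, estimates ran from -0.35 for Nhp2 to 0.50 for Ddx21, with 95% intervals of -0.66 to -0.04 for Nhp2 and 0.07 to 0.94 for Ddx21, so that these members cannot be said to be at the WT level.

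Estimates of the treatment difference were more negative in the later replicate numbers. Replicates 1 to 4 and 5 to 7 were compared because earlier results showed that these sets differ in Rn45s, and the labels do not call them batches. The median member difference was -0.23 in replicates 1 to 4 (4 against 4 libraries) and -0.82 in replicates 5 to 7 (2 DM-aKG against 3 control libraries), against -0.11 and -0.21 over all genes. All 34 members had the more negative estimate in the later set. The first set holds the pair of libraries that stood apart, DM-aKG replicate 2 and control replicate 1. The later set holds control replicate 6, the highest of its group for 25 members, and DM-aKG replicate 6, the lowest for 20. The 34 estimates share these libraries and are not independent of each other. Whether the sets or these single libraries gave the difference was not tested. None passed the interaction test in limma (smallest adjusted p = 0.249), although 18 of 34 had an unadjusted p under 0.05, and 26 of all genes (0.209%) passed it. Gar1 fell by 0.77 in the first set and 1.18 in the later one, and Nhp2 by 0.97 and 1.23. Ddx10 had estimates of 0.04 and -0.60, and Polr1a of -0.23 and -0.95. Fitted alone, replicates 1 to 4 called 6 members lower (Gar1, Nhp2, Nop10, Nop16, Nop56 and Npm1), and replicates 5 to 7 called 29. These fits called 1613 and 2382 of all genes lower, in the same order. For control over WT the medians were 0.60 and 0.58. In DM-aKG over WT the medians were 0.26 and -0.26, with 11 members higher in the first set alone and none in the second, where 1 was lower. Over all genes, 2224 were higher in the first set alone, and 147 were higher and 247 lower in the second. No gene passed the interaction test in limma for either WT comparison, while 22 members for DM-aKG against WT and none for control against WT had an unadjusted p under 0.05. Rn45s averaged 5175 ± 275.4 RPKM (SD, n = 4) in DM-aKG replicates 1 to 4, and 2089.5 and 1584.8 RPKM in its replicates 5 and 6.

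**Figure D4:**
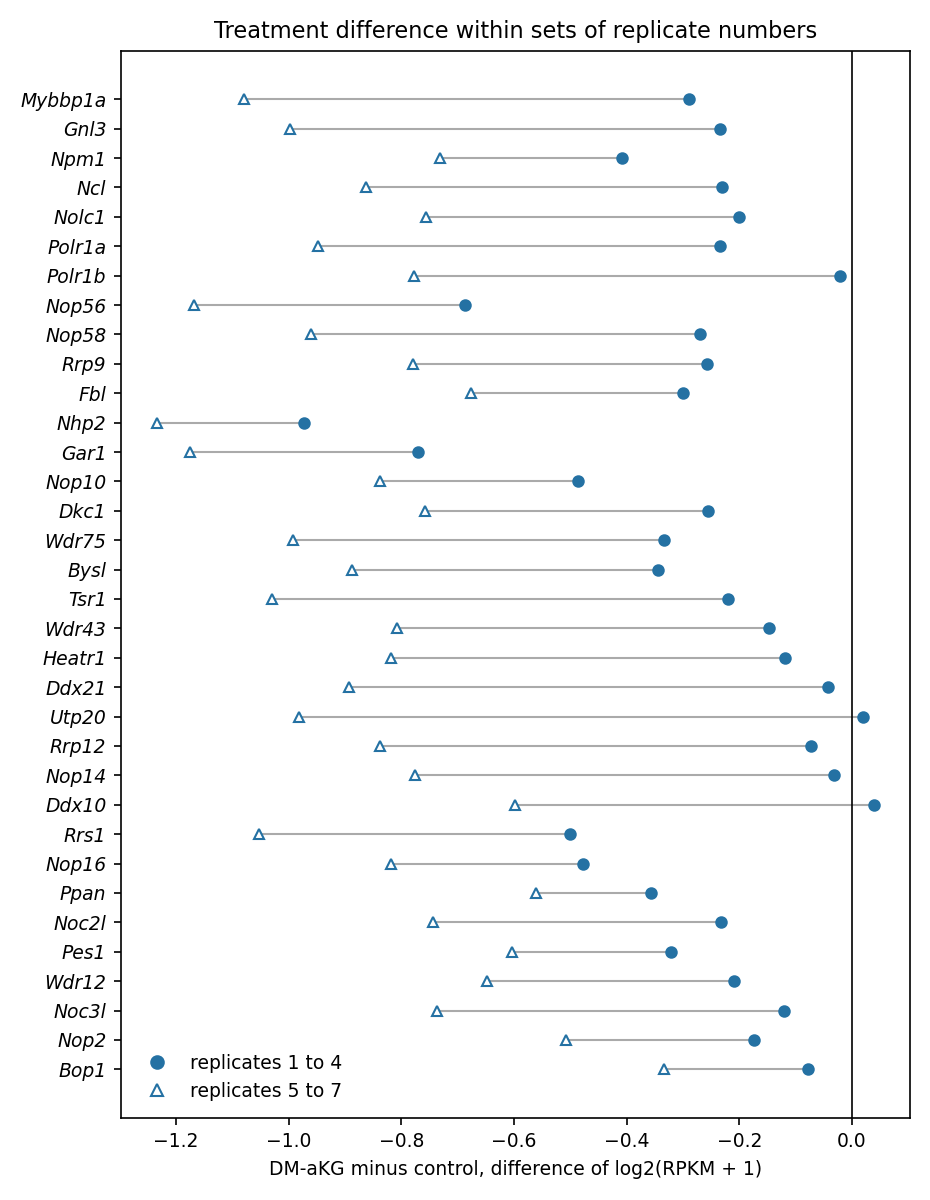
For each of the 34 members, the DM-aKG minus control difference on the log2(RPKM + 1) scale in replicates 1 to 4 (circles) and in replicates 5 to 7 (open triangles). Every triangle lies left of its circle, with medians of -0.82 and -0.23.

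Other genes of ribosome biogenesis, taken from 4 lists by role that do not hold the members, moved in the same directions. Of these 124 genes, 64 (51.6%) were lower with DM-aKG and none higher (median -0.33), and 104 were higher and 1 lower in control over WT (median 0.52). Median-of-ratios scaling, which tested 123 of them, called 33 lower with DM-aKG and 73 higher and 2 lower in control over WT. Without the pair of libraries that stood apart, 93 of 122 were lower with DM-aKG and 107 higher in control over WT. By list, the lower genes were 6 of 14 in the RNA polymerase I machinery, 24 of 44 small-subunit factors, 22 of 45 large-subunit factors, and 12 of 21 genes of snoRNP assembly and rRNA decay. In the same order, median-of-ratios scaling called 2, 10, 13 and 8 lower. Las1l, which cleaves the spacer between 5.8S and 28S RNA, averaged 5.77 ± 0.41 RPKM in WT, 13.0 ± 0.89 RPKM in control (SD, n = 7 each) and 8.14 ± 1.39 RPKM in DM-aKG libraries (SD, n = 6), and its control libraries, from 11.8 to 14.2 RPKM, overlapped neither other group. It fell by 0.63 with DM-aKG (limma adjusted p = 1.3e-05). Pinx1, a nucleolar protein that also binds telomerase, fell by 0.72, Noc4l, a small-subunit factor, by 0.71, and Ruvbl1, an ATPase of snoRNP assembly, by 0.72. Rrp7a of the processome fell by 0.38, the RNA polymerase I subunit Cd3eap by 0.55, the initiation factor subunit Taf1b by 0.40 and the exosome subunit Exosc3 by 0.54. Taf1b and Cd3eap were not called lower after quantile normalization (-0.21 and -0.36). Exosc3 was not called in control over WT (0.07, and -0.15 after median-of-ratios scaling) and was lower than WT with DM-aKG (-0.47, limma adjusted p = 0.00216). In DM-aKG over WT, 26 of the 124 were higher and 7 lower.

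The cytosolic ribosomal proteins, the protein parts of the finished ribosome, are given for comparison. Of 79 genes, 75 were higher in control than in WT (median 0.68), 7 were lower with DM-aKG (8.86%, median -0.14, the same as over all genes), and 69 were still higher than WT with DM-aKG (median 0.55). With DM-aKG against control, median-of-ratios scaling called none of the 79 (median 0.03) and quantile normalization 15 lower. Ribosomal protein genes have many processed copies, so their reads may be shared with them. Among 25 cell proliferation genes, 2 were higher and 1 lower in control over WT (median -0.07), 11 were lower and none higher with DM-aKG (median -0.58), and 14 were lower than WT with DM-aKG (median -0.57). Median-of-ratios scaling called 5 of them lower with DM-aKG against control and 3 lower in control over WT. Without the pair of libraries that stood apart, 16 of the 25 proliferation genes were lower with DM-aKG against control and 12 lower than WT. The ribosomal protein counts were then 7 lower with DM-aKG, 72 higher in control over WT and 66 higher in DM-aKG over WT. The part of proliferation in the members' differences was not tested.

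Markers of other cells moved with both comparisons. With DM-aKG, 11 of 12 smooth muscle markers were higher and 6 of 12 fibroblast markers lower, 6 of 12 epithelial markers were lower and 1 higher, and none of 11 tested immune and plasma cell markers was called (2 were called higher after median-of-ratios scaling). Of the epithelial markers, that scaling called 2 lower and 1 higher. In control over WT, 5 of 12 epithelial markers were lower and 2 higher, all 12 smooth muscle and all 11 immune and plasma cell markers were lower and 9 of 12 fibroblast markers higher. The direction of the epithelial markers there depended on the scaling, with 7 lower and 1 higher after median-of-ratios scaling (median -0.41) and 3 lower and 4 higher after quantile normalization (median 0.24). Without the pair of libraries that stood apart, all 12 smooth muscle markers and 2 immune and plasma cell markers were higher with DM-aKG, 6 fibroblast and 5 epithelial markers were lower, and 1 epithelial marker was higher. The summed RPKM of the 12 fibroblast markers was 172.5 to 256.6 in WT, 360.3 to 477.8 in control and 186.2 to 329.5 in DM-aKG libraries. That of the 12 immune and plasma cell markers was 1834 to 2105, 112.8 to 311.6 and 203.8 to 396 in the same order. A large part of this sum was Cd74, which alone averaged 1351, 94.4 and 128.6 RPKM. The sum of the 12 epithelial markers was 6599 to 9011, 5203 to 7574 and 4353 to 5647 in the same order. No marker was at 0 in any library. With the mean of the smooth muscle markers as a covariate, 12 members were lower with DM-aKG (median -0.46, against -0.16 over all genes) and 21 were higher in control over WT (median 0.65, against 0.20 over all genes). That fit called 2343 of all genes lower with DM-aKG and 2963 higher in control over WT. Without the covariate the member medians were -0.44 and 0.55. The smooth muscle markers themselves differed between control and both other groups, so this fit cannot separate muscle content from group. The control library replicate 6 had the highest smooth muscle sum of its group, 1474, and was also the highest of its group for 25 of 34 members. The part of the fibroblast, immune and epithelial markers in the members' differences was not tested.

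Of the 34 members, 8 carry snoRNA genes inside them on the same strand, in the GENCODE M21 annotation of mm10. These are Nop56 with 5, Nop58 with 4, Ncl, Gnl3 and Wdr43 with 3 each, Ppan and Tsr1 with 2 each and Dkc1 with 1, 23 snoRNA genes in all. This is 8 of 34 members (23.5%), against 199 of 11957 tested protein-coding genes (1.66%). All 8 had negative treatment estimates, as had all 34 members. The 8 ran from -0.87 for Nop56 to -0.42 for Wdr43, and Wdr43 was the one not called. Of all 34 members, 24 were called lower. The values are those of the host genes. The snoRNAs themselves were not analysed here.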

How the data were processed

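RNA of 20 libraries in 3 groups was analysed, with groups and replicate numbers taken from the sample titles. The authors deposited 1 table of 24795 genes by 20 libraries, read here as RPKM. The table names no unit, and its values are fractional with a gene-dependent step. The tools CASAVA 1.8, HISAT2 2.0.4 and Partek and the genome mm10 are named in the submitters' processing notes. Counting rule, annotation and strand setting are not stated in those sources. RPKM divides by the library total, so a change in abundant genes moves all others. In the depth estimate, 66.4 to 71.7% of low values were whole (to within 0.1 read, up to 8 reads), against 20% for evenly spread values. This is too few to recover counts, and count tests were not used. No 2 libraries were identical (Pearson r over genes 0.916 to 0.9961).

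The filter required 1 RPKM or more in 6 or more libraries and kept 12433 genes. Log2(RPKM + 1) of all 20 libraries and 3 groups was fitted with limma 3.58.1 (R 4.3.3, statmod 1.5.0; empirical Bayes, trend and robust settings), 2-sided, with Benjamini-Hochberg adjustment over all genes kept and a threshold of 0.05. The fit was tested on simulated data. Rn45s was compared by exact permutation, whose smallest p here is 0.000583. Python 3.11.15, numpy 2.4.6, pandas 2.3.3 and matplotlib 3.10.9 were used.

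The members and lists were chosen with earlier results of these data known. Values by library are given for the 3 members with the smallest p in each comparison, the 2 with the largest p for the treatment, and Ncl, Npm1, Fbl, Dkc1, Polr1a and Bop1. From each of the 4 other pathway lists, 2 called genes with the smallest treatment p are named, and from the Myc network all called genes. Nop10, Nop14, Nop56, Rrs1, Wdr12 and the other members with single values are given by role. Promoter windows are from RefSeq (GRCm38.p6) and gene models from GENCODE M21, in which all 34 members were matched. Exons of 12 members overlap a gene on the opposite strand. Alternatives changed the scaling, pseudocount, filter, weights, libraries, covariates and fold threshold.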

Additional observations from a re-analysis of the deposited data

Results flagged for a closer look

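Within-group outliers were sought with Dixon's ratio in 108 groups of libraries (the members, Myc and Rn45s by group). Its threshold flags about 1 in 20 groups of independent, normally distributed values. The values here were RPKM without a log and the genes share libraries, so that rate need not hold and the flags are not separate results. In the 108 groups 12 flags were found, all at the high end, and 10 of them were the DM-aKG library replicate 2. In that library Mybbp1a was at 22.12 RPKM (next library 12.42), Gnl3 at 15.07 RPKM (8.76), Gar1 at 9.357 RPKM (6.428), Nolc1 at 8.821 RPKM (6.567) and Rrs1 at 7.682 RPKM (5.386). Wdr75 was at 6.142 RPKM (4.4), Rrp9 at 5.901 RPKM (3.816), Bysl at 3.389 RPKM (1.705), Heatr1 at 3.355 RPKM (2.264) and Wdr12 at 2.475 RPKM (1.715). The same library had the highest Myc value of its group, 8.723 RPKM, while its smooth muscle sum of 1216 and its Rn45s value of 5087.6 RPKM lay inside the range of its group. The other 2 were the control library replicate 6, with Rrp9 at 7.958 RPKM (next 5.985) and Bysl at 5.013 RPKM (3.176). The causes were not tested.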

How the results depend on the processing

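With DM-aKG against control, the count of members lower (24) became 13 under median-of-ratios scaling, 13 under quantile normalization, 12 with the smooth muscle covariate, 6 in replicates 1 to 4 only (fewer libraries) and 6 with a minimum change of 1.2-fold. It ran from 19 to 30 without 1 library. The median moved to -0.82 in replicates 5 to 7 only. Over all genes the count lower (3432) became 1815 under median-of-ratios scaling and 1837 under quantile normalization. It became 2343 with the smooth muscle covariate, 1613 in replicates 1 to 4 only and 1000 with the minimum change. Without 1 library it ran from 2866 to 3690. Gar1, Nhp2, Nop10 and Nop16 were called lower in every alternative run, and 18 members kept the call whichever 1 library was left out.

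In control against WT, the members higher (29) became 19 under quantile normalization and 16 with a minimum change of 1.2-fold, and ran from 25 to 33 without 1 library. Over all genes the count higher (5368) became 3275 under quantile normalization and 2706 with the minimum change. Without 1 library it ran from 4985 to 5474. Median-of-ratios scaling called 1 lower (Bop1, adjusted p = 0.0336 in limma). Of the 29, 14 were called in every alternative that tested them (Polr1a and Wdr75 were not tested with a mean of at least 5 RPKM). Nop56, Rrp9, Utp20 and Rrp12 kept the call in 17, 16, 14 and 13 of the 20 fits that left out 1 library.

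In DM-aKG against WT, the members higher (6) became 11 in replicates 1 to 4 only, 0 in replicates 5 to 7 only and 0 with a minimum change of 1.2-fold, and ran from 4 to 9 without 1 library. Over all genes the count higher (2722) became 2224, 147 and 683 in these settings, in the same order. It ran from 2217 to 2970 without 1 library. The members lower (0) became 3 under median-of-ratios scaling, 2 under quantile normalization, 4 with array weights, 1 with only the groups compared, 1 with the replicate set as a factor, 1 in replicates 5 to 7 only and 3 without the pair of libraries that stood apart, and ran from 0 to 2 without 1 library: 2 without DM-aKG replicate 2, and 1 without DM-aKG replicate 3 or without control replicate 4. Over all genes the count lower (2151) became 2787, 2445, 2597, 2385, 2536, 247 and 1944 in these settings, in the same order. It ran from 1570 to 2265 without 1 library. The median of the members became -0.26 in replicates 5 to 7 only, where Wdr75 reversed to -0.013 (adjusted p = 0.964 in limma). The cause of these changes was not tested.

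Correlations of the deviations of same-numbered replicates were mixed, from -0.457 to 0.604 for DM-aKG with control, -0.302 to 0.513 for control with WT and -0.051 to 0.152 for DM-aKG with WT. Since not every pair was above 0.1, the numbers were not taken to pair the libraries. With the replicate number as a block (replicate block), 22 members were lower with DM-aKG, 29 higher in control over WT and 8 higher in DM-aKG over WT. Over all 12433 genes that fit called 3603, 5675 and 3151, in the same order. Members below 5 RPKM rest on fewer reads per kilobase.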
